A study of Homo sapiens with 4 samples.

Results

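The genes described here encode the pyruvate dehydrogenase complex with its kinases and phosphatase, and enzymes of the tricarboxylic acid (TCA) cycle. Others encode cytosolic counterparts of cycle enzymes, and mitochondrial enzymes that carry carbon into or out of the cycle. Refilling the cycle is called anaplerosis. The genes form a list of 31 symbols, grouped by function. All 31 were found among the 27332 gene IDs present in the files of all 4 libraries. RNA was sequenced from the human cell line MOLM-13, which grew out of an acute myeloid leukaemia with monocytic features. In 2 libraries the cells were untreated, and in the other 2 GADD45G, a stress-response gene of the GADD45 family, had been overexpressed by adding doxycycline (labelled 1 mg/ml, for 4 days). The design text calls the 2 libraries of a group biological replicate experiments, and it does not name the promoter, vector or clone of the inducible construct. Both groups came from the same line in the same serum-containing medium. All differences below cover doxycycline and GADD45G together, which cannot be told apart, and in bulk RNA a smaller amount of RNA per cell and fewer cells of one kind cannot be told apart either.

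Pyruvate made by glycolysis enters mitochondria and is turned into acetyl-CoA by the pyruvate dehydrogenase complex, which kinases switch off and phosphatases switch on. Acetyl-CoA is oxidised in the TCA cycle, which supplies electrons to the respiratory chain and carbon skeletons to lipid, amino acid and nucleotide synthesis. Glutamine, pyruvate and branched-chain amino acids feed the cycle at several points. In acute myeloid leukaemia the cycle is known for the isocitrate dehydrogenases, which are mutated in part of the patients, and for the reliance of leukaemic cells on mitochondrial respiration.

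Libraries held 15683931 to 18895470 reads, as recovered from the values. GADD45G was at 10.5 and 0.289 RPKM (reads scaled to the length of the gene model and to library depth) in untreated controls 1 and 2 and at 3236 and 2118 RPKM in induced replicates 1 and 2. Of 10 myeloid markers, PTPRC, SPI1, CD33, ITGAM and LYZ were above 1 RPKM in every library. MPO was at 0.162 to 0.278 RPKM and CD34 at 0 to 0.0162 RPKM, so these markers of immature myeloid cells were close to absent. Other myeloid markers differed between the groups: LYZ fell from 1173 and 868 RPKM to 268 and 242 RPKM (adjusted p = 0.000326), and ITGAM rose from 8.89 and 12.9 RPKM to 21.2 and 17.6 RPKM (adjusted p = 0.0268, up to 0.170 over the alternatives). FLT3 was at 0.958 and 1.19 RPKM against 0.0889 and 0.0451 RPKM, and CD14 at 0.565 and 0.541 RPKM against 1.37 and 1.49 RPKM; neither reached the filter for testing. The part of these marker differences in the results below was not tested. Of 10 epithelial markers, 7 were at 1 RPKM or more in untreated control 1 and in induced replicate 1, against 1 in each of the other libraries; their summed level was 45.6 and 42.05 RPKM against 5.20 and 1.67 RPKM. EPCAM and KRT19 were at 0 RPKM in both replicate 2 libraries. Changes within the replicate 2 libraries are therefore given beside the results, since those libraries hold no reads of these 2 genes.

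**Figure D1:**
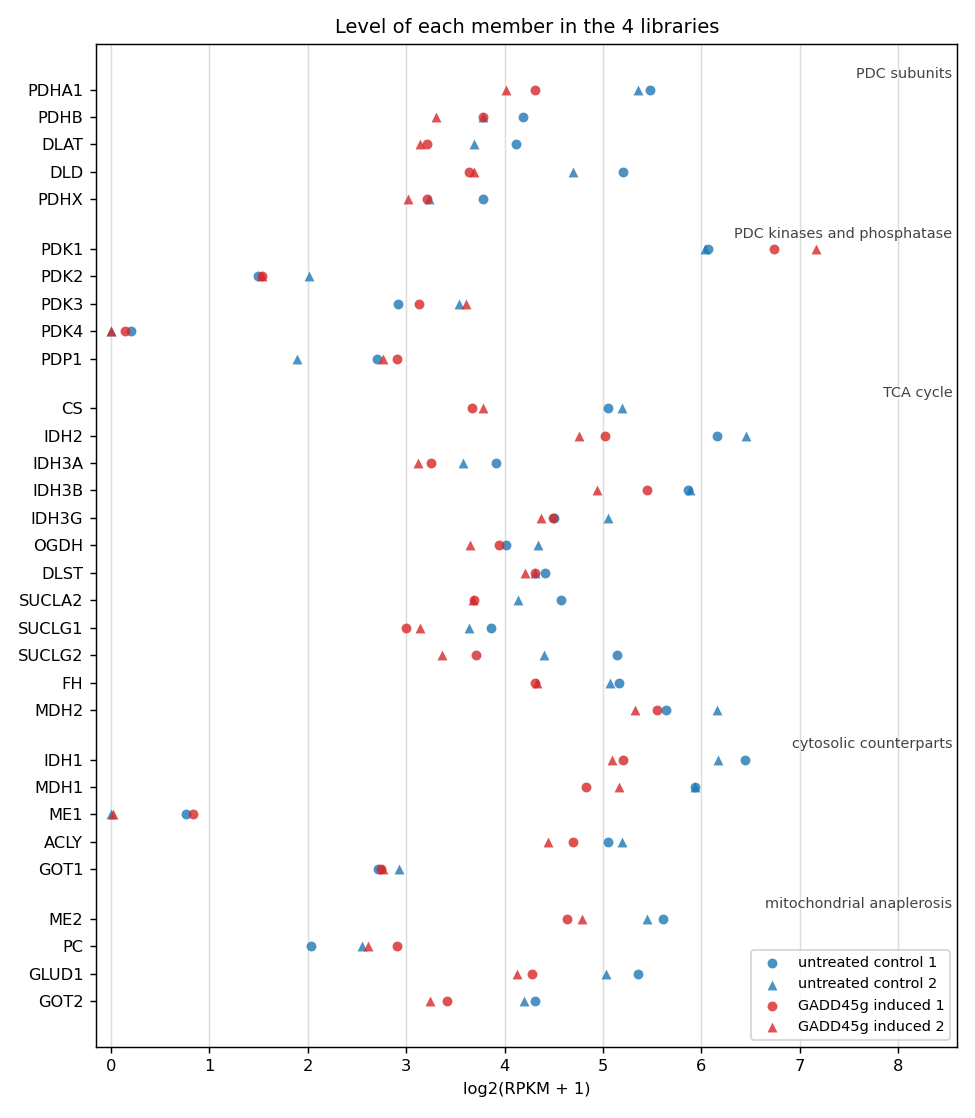
Level of each of the 31 genes on the log2(RPKM + 1) scale, by role, with 1 point per library (blue, untreated; red, induced; circles, replicate 1; triangles, replicate 2). In the TCA cycle both red points of all 12 genes lie to the left of both blue points, whereas PDK1 lies to the right, at 106 and 142 RPKM against 65.9 and 64.4 RPKM. Of all tested genes, 45.8% lay below both controls and 24.1% above both.

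Most genes of the group were lower after induction, and PDK1, a kinase that switches pyruvate dehydrogenase off, was higher. The filter of at least 1 RPKM, averaged over the 4 libraries, left 29 of the 31 genes for testing. Of these, 14 fell and 1 rose at an adjusted p under 0.05 (limma on log2(RPKM + 1), Benjamini-Hochberg over 10771 genes). Over all tested genes the shares were 26.7% lower and 12.2% higher (38.9% in either direction), against 48.3% and 3.45% of the 29. The median log2 change of the 29 genes was -0.67, and that of all tested genes was -0.21. Induced values lay below both controls for 23 of the 29 genes and above both for 3, against 45.8% and 24.1% of all tested genes. A change of scale matters here: with the median change of all genes set to 0, 9 genes fell and 1 rose (31.03% and 3.45%, against 19.0% and 17.4% of all genes). With trimmed mean scaling 9 fell and 3 rose (31.03% and 10.3%, against 18.8% and 18.3%). Without untreated control 1, induced replicate 1 or induced replicate 2 in turn, 8, 9 and 7 genes fell, against 20.7%, 17.8% and 16.4% of all tested genes.

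The medians were alike in both replicate pairs, while single genes differed between them. Between the replicate 1 libraries the median log2 change of the 29 genes was -0.66 (all genes -0.20), and between the replicate 2 libraries, which lack EPCAM and KRT19, it was -0.68 (all genes -0.22). All 14 genes called lower were lower in both pairs. The tested change is the mean of the pair changes in these same libraries, so this is no separate support. Of the 14, DLAT had log2 changes of -0.90 and -0.55 in pairs 1 and 2, SUCLA2 of -0.88 and -0.46, and SUCLG1 of -0.86 and -0.50. The fall was larger in pair 2 for PDHA1, CS, IDH2 and GOT2, and smaller for the other genes called lower. Among genes that did not pass, MDH2 had log2 changes of -0.10 and -0.84 in pairs 1 and 2, IDH3G of -0.01 and -0.68, OGDH of -0.06 and -0.70, and PC of 0.87 and 0.05. PDHA1, DLD, CS, IDH2 and IDH1 were called under each of the 17 alternative settings as well, with log2 changes between -1.56 and -0.89. How many of all tested genes were called in every setting was not counted, so these 5 have no background share beside them. Between the replicate 2 libraries alone their log2 changes were -1.33, -1.005, -1.41, -1.70 and -1.07, in that order, and that of PDK1 was 1.13.

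**Figure D2:**
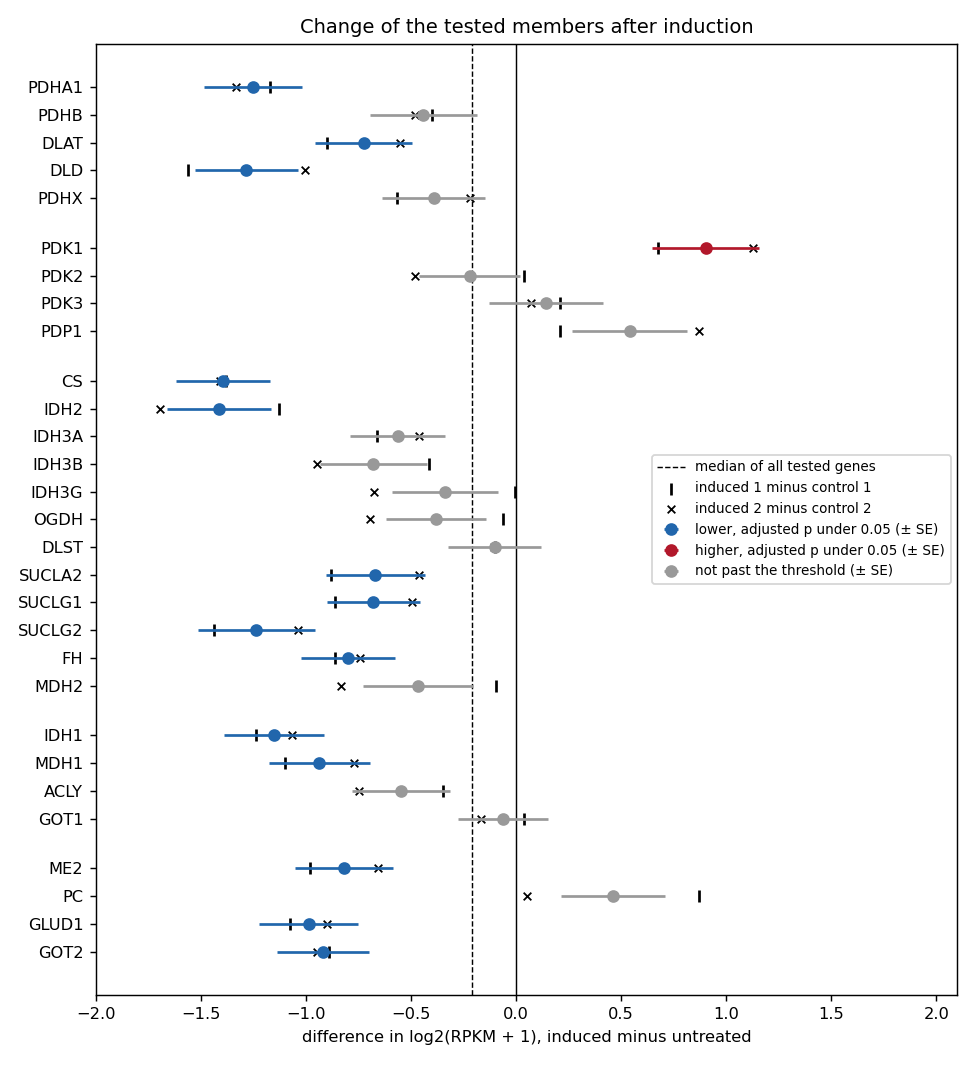
Difference in log2(RPKM + 1) between induced and untreated libraries for the 29 tested genes (circles with SE; blue, lower; red, higher; grey, not past the threshold), with the difference inside each replicate pair (bars, replicate 1; crosses, replicate 2). The dashed line is the median of all tested genes, -0.21; 23 of the 29 circles lie to its left and PDK1, at 0.90, lies farthest to the right.

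All 5 subunit genes of the pyruvate dehydrogenase complex had lower values after induction in both libraries than in either control, and 3 of them passed the test. The shares over all tested genes were 45.8% below both controls and 26.7% called lower. PDHA1 (ENSG00000131828), the catalytic E1 alpha subunit that the kinases phosphorylate, was at 43.6 and 39.8 RPKM in the controls and at 18.8 and 15.2 RPKM after induction. The groups lay far apart, and the log2 change was -1.25 ± 0.23 (SE, adjusted p = 0.00176). PDHB (ENSG00000168291), the E1 beta subunit that pairs with it, stood at 17.2 and 12.8 RPKM against 12.8 and 8.87 RPKM; the second control and the first induced library were nearly equal, and the change of -0.44 did not pass (adjusted p = 0.194).

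DLD (ENSG00000091140), the E3 dihydrolipoyl dehydrogenase, went from 35.9 and 24.9 RPKM to 11.5 and 11.9 RPKM (log2 change -1.28 ± 0.25, adjusted p = 0.00207). This subunit also serves the 2-oxoglutarate and branched-chain dehydrogenases and the glycine cleavage system. DLAT, the E2 acetyltransferase core, went from 16.3 and 11.9 RPKM to 8.25 and 7.79 RPKM (log2 change -0.73, adjusted p = 0.0298). That call was lost without untreated control 1 (0.135), induced replicate 1 (0.110) or induced replicate 2 (0.147) with no filter (0.102) and with each of the 4 scalings tried. PDHX, which anchors E3 to the core, was at 12.7 and 8.41 RPKM against 8.26 and 7.08 RPKM (log2 change -0.39, adjusted p = 0.233).

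Summed over the 5 subunits, levels were 126 and 97.8 RPKM in the controls and 59.5 and 50.8 RPKM after induction, a 2.02-fold lower mean. Exons of MAP3K15 on the opposite strand cover 21.3% of the PDHA1 model in the reference annotation. MAP3K15 was at 0.952 to 2.99 RPKM, and since strand use in counting is not given, its reads cannot be separated from those of PDHA1 there.

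Of the 4 kinases and 1 phosphatase listed for the complex, 4 genes were tested and PDK1 alone passed (38.9% of all tested genes passed). PDK1 (ENSG00000152256), a kinase known as a target of hypoxia-inducible factor 1, was at 65.9 and 64.4 RPKM in the controls and at 106 and 142 RPKM after induction. The controls were close to each other, both induced libraries lay above them, and the mean was 1.90-fold higher (log2 change 0.90 ± 0.25, adjusted p = 0.0167). Among the 31 genes PDK1 ranked 3 by its mean level in the controls and 1 after induction. The direction held under each of the 17 alternatives, but the call was lost without untreated control 1 (adjusted p of 0.0682), untreated control 2 (0.0712) or induced replicate 2 (0.134), and also when low genes were kept (0.0698). It passed under the scalings by upper quartile, trimmed mean, quantiles and median.

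PDK3, a kinase with high activity toward the complex, was at 6.58 and 10.6 RPKM against 7.76 and 11.2 RPKM, and the groups overlapped (log2 change 0.14, adjusted p = 0.714). PDK2, the most widely expressed isoform in many tissues, was at 1.83 and 3.05 RPKM against 1.90 and 1.90 RPKM (log2 change -0.22, adjusted p = 0.494), and SAMD14 on the opposite strand shares 38.6% of its exon bases. PDK4, the isoform induced by fasting, was near the detection limit: it had 13 and 9 reads in untreated control 1 and induced replicate 1 and 0 reads in the replicate 2 libraries, where 0 reads allow up to 0.0423 and 0.0416 RPKM. PDK4 reads were found only in the libraries with the higher epithelial sums (45.6 and 42.05 RPKM), and the part of that signal in the level of PDK4 was not tested.

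Of the summed kinase RPKM, PDK1 made up 88.5% and 82.5% in untreated libraries and 91.5% and 91.5% in induced ones. The summed kinases were at 74.5 and 78.1 RPKM before and 116 and 155 RPKM after. The ratio of summed kinase to summed subunit RPKM within a library, which does not depend on scaling between libraries, went from 0.593 and 0.799 to 1.94 and 3.05. With 2 libraries against 2, no exact two-sided permutation test can give a p under 0.333, so ratios are given without a test. Of 19 ratios, shares and sums computed, 14 had groups that did not overlap. Several share genes or sums, and no background share was computed for ratios, so this count is not a result about these genes. Of single tested genes, 45.8% lay below both controls and 24.1% above both. The ratios of kinases to subunits, PDK1 to PDHA1, DLD to DLST and DLD to DLAT were not among those planned. The first of these follows from its 2 sums, which moved apart, and the others follow from the levels of their 2 genes. None of them is a separate result. PDP1, the phosphatase that switches the complex on, was at 5.50 and 2.72 RPKM against 6.52 and 5.80 RPKM (log2 change 0.54, adjusted p = 0.144). It passed only with trimmed mean or quantile scaling and without untreated control 1 (0.0287), the library with the higher of the 2 control values. PDP2, the other phosphatase, is in the list of connected genes and fell from 5.21 and 5.79 RPKM to 2.64 and 2.90 RPKM (log2 change -0.79, adjusted p = 0.0132); it missed the threshold under 6 of 16 alternatives.

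Regulators of mitochondrial and hypoxia-responsive genes were called about as often as all tested genes. Of 15 in the list, 4 fell (26.7%, against 26.7% of all) and 2 rose (13.3%, against 12.2% of all). The other 9 were not called. Among these, NRF1 had a log2 change of 0.04 (adjusted p = 0.906). ESRRA, an estrogen-related receptor, had one of -0.08 (adjusted p = 0.839), and GABPA one of -0.44 (adjusted p = 0.146). HIF1A, the oxygen-regulated subunit of hypoxia-inducible factor 1, was at 20.5 and 20.02 RPKM in the controls and at 38.8 and 52.5 RPKM after induction (log2 change 1.12 ± 0.24, adjusted p = 0.00424; 0.0512 at most over the alternatives). PPARD, a fatty acid sensing nuclear receptor, rose from 60.4 and 75.7 RPKM to 316 and 258 RPKM. PPARGC1A, a coactivator of mitochondrial genes, fell from 1.90 and 2.20 RPKM to 0.332 and 0.274 RPKM, a 6.76-fold lower mean. Its log2 change was -1.23 with the pseudocount of 1 RPKM and between -2.74 and -0.41 over the alternatives. PPARGC1B, a related coactivator, fell from 2.37 and 3.35 RPKM to 0.579 and 0.831 RPKM, a 4.05-fold lower mean, with a log2 change of -1.17 (-2.02 to -0.46 over the alternatives; adjusted p up to 0.0539). TFAM, the mitochondrial transcription factor, fell from 14.6 and 7.40 RPKM to 4.09 and 3.98 RPKM (log2 change -1.18, adjusted p = 0.00734). Its log2 changes in pairs 1 and 2 were -1.61 and -0.76, and the call was lost without untreated control 1 (adjusted p of 0.0512) and when low genes were kept (0.112). MYC, the other regulator that fell, had the largest change of the 15, from 35.1 and 42.9 RPKM to 1.59 and 1.07 RPKM. Its log2 change was -4.10 (adjusted p = 1.05e-06; -4.87 to -2.79 over the alternatives).

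Promoter sequences from 250 bases before to 50 bases after a listed start were read from RefSeq (GRCh38.p14), which held 29 of the 31 genes. Those of PDK1, the gene that rose, and CS, one of the genes that fell most, are shown to compare a pair that moved in opposite directions. Capitals mark ACGTG on either strand, a form of the hypoxia response core that is also part of the MYC E-box CACGTG. PDK1 (chr2:172555840-172556139, plus strand, the second of its listed starts) and CS (chr12:56300281-56300580, minus strand) read:
PDK1: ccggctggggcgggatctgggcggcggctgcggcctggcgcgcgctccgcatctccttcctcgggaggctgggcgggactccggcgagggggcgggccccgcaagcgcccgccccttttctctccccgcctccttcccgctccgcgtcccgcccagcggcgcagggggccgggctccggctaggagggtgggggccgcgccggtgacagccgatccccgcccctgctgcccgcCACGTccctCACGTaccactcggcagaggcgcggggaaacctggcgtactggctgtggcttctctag
CS: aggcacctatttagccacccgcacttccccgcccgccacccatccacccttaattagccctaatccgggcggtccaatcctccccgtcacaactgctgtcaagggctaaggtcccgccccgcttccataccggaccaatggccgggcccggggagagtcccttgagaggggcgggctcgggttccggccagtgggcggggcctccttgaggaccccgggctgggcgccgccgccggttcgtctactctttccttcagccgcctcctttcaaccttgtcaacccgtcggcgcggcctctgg

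The PDK1 window held 2 matches to ACGTG, beginning 17 and 8 bases before the start, and the CS window held 0. The first listed start of PDK1 had 0 matches to ACGTG as well, as had the windows of IDH2 and DLD. The form GCGTG was not searched, so 0 matches do not mean that a window lacks the core. ACGTG was found for 10 of the 29 genes (34.5%), and for 24.9% of 27305 genes with a listed promoter. The 10 were 3 of 14 genes called lower, 1 of 1 called higher and 6 of 12 tested but not called. CACGTG was found for 2 of 29 (PDHB and PDK2, neither called) against 8.77% of all. The palindromic NRF1 motif and TCAAGGTCA, the motif of estrogen-related receptors, had 0 matches among the 29, against 1.52% and 0.432% of all genes. A match describes letters in this window only.

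In the TCA cycle proper, all 12 genes had both induced values below both controls, and 6 passed the test. Over all tested genes, 45.8% lay below both controls and 26.7% were called lower. CS (ENSG00000062485), citrate synthase, which joins acetyl-CoA to oxaloacetate, was at 32.1 and 35.6 RPKM in the controls and 11.7 and 12.8 RPKM after induction. Its groups lay well apart, with close values inside each group (log2 change -1.40 ± 0.22, adjusted p = 0.000731). IDH2 (ENSG00000182054), the mitochondrial NADP-dependent isocitrate dehydrogenase, was at 70.3 and 86.8 RPKM against 31.6 and 26.1 RPKM. Its log2 change of -1.41 ± 0.25 (adjusted p = 0.00117) was close to that of CS.

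The NAD-dependent isocitrate dehydrogenase, which is the cycle's own enzyme and is built from 3 kinds of subunit, had no subunit gene past the threshold. IDH3A, its catalytic subunit, was at 14.1 and 11.0 RPKM against 8.54 and 7.68 RPKM (log2 change -0.56, adjusted p = 0.0721). IDH3B was at 57.0 and 58.2 RPKM against 42.5 and 29.7 RPKM (log2 change -0.68, adjusted p = 0.0550), and passed without induced replicate 1 (0.0441) and in 5 other settings. IDH3G, a regulatory subunit, was at 21.6 and 32.1 RPKM against 21.5 and 19.7 RPKM, so that untreated control 1 and induced replicate 1 were almost equal (log2 change -0.34, adjusted p = 0.312). SSR4, on the opposite strand, shares 10.2% of the IDH3G exon bases, and ACSBG1 38.2% of those of IDH3A.

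Of the 12 genes, DLST had the log2 change nearest to 0. DLST, the E2 core of the 2-oxoglutarate dehydrogenase complex, was at 20.2 and 18.9 RPKM against 18.8 and 17.5 RPKM (log2 change -0.10 ± 0.22, adjusted p = 0.744), a value whose sign turned under each of the 4 scalings tried (0.07 to 0.15). OGDH, the E1 subunit of that complex, was at 15.1 and 19.3 RPKM against 14.4 and 11.5 RPKM (log2 change -0.38, adjusted p = 0.231). The third subunit, DLD, fell as given above, and the ratio of DLD to DLST went from 1.78 and 1.32 in the controls to 0.612 and 0.681 after induction. The ratio of DLD to DLAT went from 2.21 and 2.09 to 1.39 and 1.53.

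All 3 genes of succinyl-CoA synthetase fell, against 26.7% of all tested genes called lower. SUCLG2, the beta subunit of the GTP-forming enzyme, was at 34.3 and 20.2 RPKM in the controls and 12.04 and 9.32 RPKM after induction (log2 change -1.24 ± 0.28, adjusted p = 0.00526). That p was 0.0537 without untreated control 1 and 0.0829 when low genes were kept in the fit. SUCLA2, the beta subunit of the ATP-forming enzyme, was at 22.8 and 16.6 RPKM against 11.9 and 11.8 RPKM (log2 change -0.67, adjusted p = 0.0439). SUCLG1, the alpha subunit that both enzymes share, was at 13.5 and 11.5 RPKM against 6.99 and 7.85 RPKM (log2 change -0.68, adjusted p = 0.0312). Neither of the last 2 calls held under the 4 scalings, with no filter, or without untreated control 1, induced replicate 1 or induced replicate 2 (adjusted p = 0.0762 to 0.194). The ratio of SUCLA2 to SUCLG2 was 0.664 and 0.825 before and 0.990 and 1.27 after induction.

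FH, fumarase, was at 34.9 and 32.7 RPKM against 18.8 and 19.1 RPKM, with little spread inside either group (log2 change -0.80 ± 0.22, adjusted p = 0.0157). The call was lost without untreated control 1 (0.0572), induced replicate 1 (0.0815) or induced replicate 2 (0.0751) and under 2 of the scalings. MDH2, mitochondrial malate dehydrogenase, was at 49.0 and 70.4 RPKM against 45.7 and 39.0 RPKM, and the wide gap between the controls went with a change that did not pass (log2 change -0.47, adjusted p = 0.182).

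Among the cytosolic counterparts, which make NADPH, carry reducing power across the mitochondrial membrane or supply acetyl-CoA, 2 of 4 tested genes fell. Of all tested genes, 26.7% were called lower. IDH1 (ENSG00000138413), the cytosolic isocitrate dehydrogenase, was at 85.9 and 70.7 RPKM against 35.9 and 33.2 RPKM (log2 change -1.15 ± 0.24, adjusted p = 0.00331). MDH1, cytosolic malate dehydrogenase, was at 59.9 and 60.1 RPKM against 27.4 and 34.8 RPKM (log2 change -0.94, adjusted p = 0.0103; 0.0904 without induced replicate 1). ACLY, which splits exported citrate into acetyl-CoA for lipid synthesis and histone acetylation, was at 32.1 and 35.6 RPKM against 24.9 and 20.8 RPKM. Its groups did not overlap, but the change did not pass (log2 change -0.55, adjusted p = 0.0849).

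GOT1, the cytosolic aspartate aminotransferase, was at 5.55 and 6.62 RPKM against 5.72 and 5.79 RPKM (log2 change -0.06 ± 0.21, adjusted p = 0.837), and its sign turned under the 4 scalings and without untreated control 2. ME1, the cytosolic malic enzyme, had 44 and 50 reads in untreated control 1 and induced replicate 1 (0.694 and 0.783 RPKM, 95% Poisson intervals 0.504 to 0.931 and 0.581 to 1.03 RPKM). In untreated control 2 it had 0 reads, which allow up to 0.0566 RPKM, and in induced replicate 2 it had 1 read (0.0185 RPKM). ME1 reads were thus found mainly in the replicate 1 libraries, as were those of EPCAM, KRT8, KRT18 and KRT19. Of the epithelial list, MUC1 went with the treatment instead (3.86 and 4.78 RPKM against 1.19 and 1.41 RPKM, adjusted p = 0.00152). The part of that epithelial signal in its level was not tested.

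Of the 4 mitochondrial enzymes listed under anaplerosis, 3 fell, against 26.7% of all tested genes called lower. ME2, among the 3, takes malate out of the cycle, and PC, which refills it, was not called. GLUD1, glutamate dehydrogenase, was at 40.0 and 31.6 RPKM against 18.4 and 16.5 RPKM (log2 change -0.99 ± 0.24, adjusted p = 0.00713; 0.0572 without induced replicate 2). GLUD1 has near-identical copies in the genome, so its level depends on how shared reads were assigned, and SHLD2 on the opposite strand shares 13.2% of its exon bases. GOT2, the mitochondrial aspartate aminotransferase, was at 18.9 and 17.3 RPKM against 9.70 and 8.50 RPKM (log2 change -0.92, adjusted p = 0.00717; 0.0691 without induced replicate 2).

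ME2, the mitochondrial malic enzyme, which makes pyruvate from malate, was at 48.0 and 42.5 RPKM against 23.8 and 26.6 RPKM (log2 change -0.82, adjusted p = 0.0167). Its call was lost without untreated control 1 (0.0693), induced replicate 1 (0.103) or induced replicate 2 (0.0554) and under trimmed mean and median scaling. PC, pyruvate carboxylase, which makes oxaloacetate from pyruvate, had higher values after induction: 3.11 and 4.88 RPKM in the controls and 6.50 and 5.10 RPKM after. The second values of both groups were close, and the change did not pass (log2 change 0.46 ± 0.25, adjusted p = 0.162), although it did with trimmed mean (0.0465) and quantile (0.0405) scaling. LRFN4, whose exons on the opposite strand overlap 10.5% of the PC model, went the other way, from 11.9 and 17.2 RPKM to 6.72 and 4.30 RPKM.

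Pairs of enzymes that catalyse the same step in mitochondria and cytosol were compared within libraries. The ratio of GOT1 to GOT2 was 0.294 and 0.382 in the controls and 0.589 and 0.682 after induction, so the induced libraries lay above both controls. IDH1 and IDH2 both fell, and their ratio overlapped between the groups (1.22 and 0.814 against 1.14 and 1.27). The ratio of MDH1 to MDH2 overlapped as well (1.22 and 0.854 against 0.600 and 0.892). Inside pyruvate dehydrogenase E1, the ratio of PDHA1 to PDHB was 2.54 and 3.11 before and 1.47 and 1.71 after induction.

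**Figure D3:**
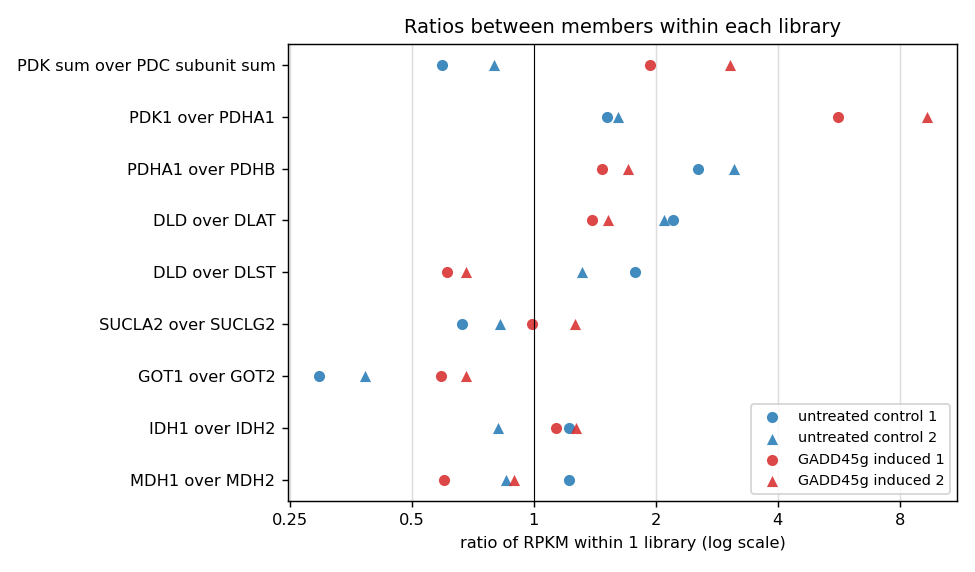
Ratio of RPKM between genes within each library, on a log scale (blue, untreated; red, induced; circles, replicate 1; triangles, replicate 2). The ratio of summed kinases to summed subunits of pyruvate dehydrogenase lies at 0.593 and 0.799 in the controls and 1.94 and 3.05 after induction, while the ratios of IDH1 to IDH2 and of MDH1 to MDH2 overlap between the groups.

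The genes that connect to this group were taken from a further list of 54: the remaining TCA enzymes, glutamine and propionate metabolism, carriers of pyruvate, citrate and aspartate, lactate dehydrogenase, and lipoylation with the complexes that share DLD. Of the 44 tested, 16 fell and 4 rose, with a median log2 change of -0.45 (36.4% and 9.09%, against 26.7% and 12.2% of all tested genes); 9 were below the filter and 1 was not in all 4 files. Leaving out induced replicate 1 or induced replicate 2 left 10 and 9 that fell, against 17.8% and 16.4% of all tested genes. Of the 8 tested genes for lipoylation or complexes that share DLD, 3 fell (26.7% of all tested genes were called lower). LIPT1, a lipoyltransferase, went from 8.54 and 5.93 RPKM to 1.80 and 2.23 RPKM (log2 change -1.43, adjusted p = 0.000843). BCKDHB, the E1 beta subunit of the branched-chain dehydrogenase, went from 7.87 and 6.02 RPKM to 1.81 and 1.82 RPKM (log2 change -1.49, adjusted p = 0.000454). DBT, the E2 core of that complex, was at 3.92 and 3.54 RPKM against 3.30 and 4.12 RPKM (adjusted p = 0.971). BCKDK, its kinase, was at 11.9 and 18.5 RPKM against 23.1 and 22.4 RPKM and was not called.

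Entry of pyruvate and acetate gave changes in both directions. MPC1 and MPC2 form the mitochondrial pyruvate carrier together, and they moved apart: MPC1 fell from 25.9 and 17.8 RPKM to 10.1 and 10.1 RPKM (log2 change -1.02, adjusted p = 0.00721; 0.0622 at most over the alternatives), and MPC2 rose from 56.2 and 42.2 RPKM to 149 and 111 RPKM (log2 change 1.39, adjusted p = 0.00215). LDHB, the lactate dehydrogenase subunit that favours pyruvate formation, fell from 221 and 202 RPKM to 76.8 and 74.2 RPKM, whereas LDHA, the subunit that favours lactate formation, was at 110 and 88.2 RPKM against 127 and 127 RPKM and did not pass (log2 change 0.36, adjusted p = 0.283). ACSS1, the mitochondrial acetyl-CoA synthetase, had the largest fall of the 44, from 11.7 and 13.3 RPKM to 1.89 and 1.74 RPKM (log2 change -2.26, adjusted p = 3.06e-05). ACSS2, its cytosolic and nuclear counterpart, was 1.60-fold higher (adjusted p = 0.0414, up to 0.174 over the alternatives).

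Other connected genes with small adjusted p belonged to succinate, propionate and hydroxyglutarate metabolism. SUCNR1, the cell surface receptor for succinate, rose from 29.97 and 17.6 RPKM to 115 and 118 RPKM (log2 change 2.29 ± 0.28, adjusted p = 0.000133). D2HGDH, which oxidises D-2-hydroxyglutarate to 2-oxoglutarate, rose from 4.86 and 5.44 RPKM to 13.3 and 12.2 RPKM (log2 change 1.16, adjusted p = 0.00172). PCCB, the beta subunit of propionyl-CoA carboxylase, was 4.00-fold lower (adjusted p = 0.000246), and CLYBL, a mitochondrial citramalyl-CoA lyase, was 3.22-fold lower (adjusted p = 0.00173). SDHB, the iron-sulphur subunit of succinate dehydrogenase, fell from 30.4 and 29.7 RPKM to 13.9 and 13.7 RPKM, and SLC25A12, an aspartate/glutamate carrier, from 23.0 and 23.3 RPKM to 11.3 and 11.3 RPKM.

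**Figure D4:**
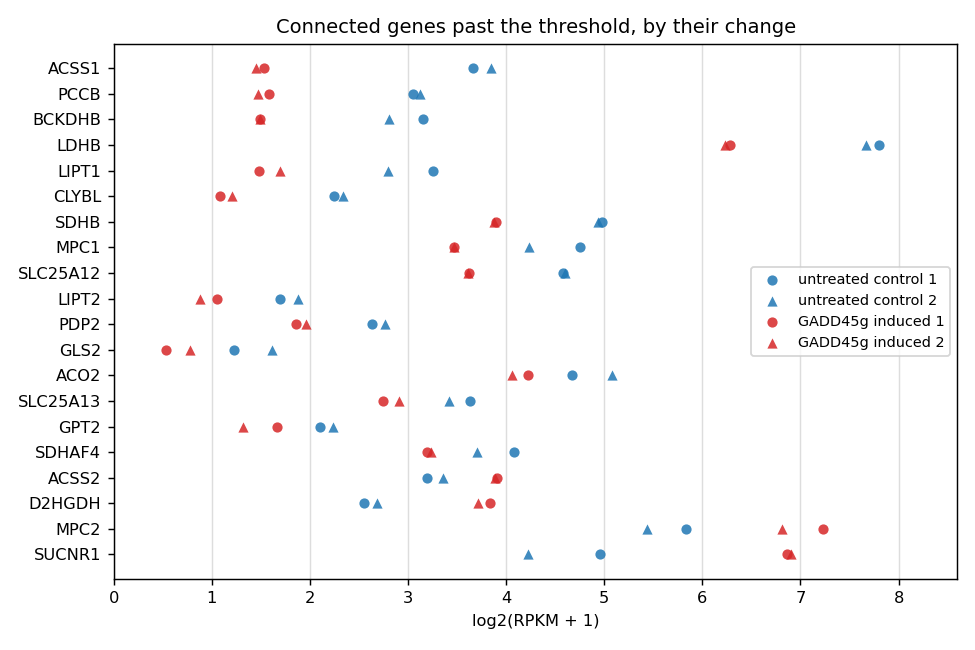
Level of the 20 connected genes past the threshold on the log2(RPKM + 1) scale, ordered from the largest fall (top) to the largest rise (bottom), with 1 point per library (blue, untreated; red, induced). ACSS1 falls from 11.7 and 13.3 RPKM to 1.89 and 1.74 RPKM, and SUCNR1 rises from 29.97 and 17.6 RPKM to 115 and 118 RPKM.

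The grid of calls under each setting shows how far the 29 genes depended on the processing, and no such grid was made over all tested genes. PDHA1, DLD, CS, IDH2 and IDH1 passed in every setting, MDH1, GLUD1 and GOT2 missed it only when 1 induced library was left out, and DLAT, SUCLA2 and SUCLG1 missed it under 8 of the 17 alternatives.

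**Figure D5:**
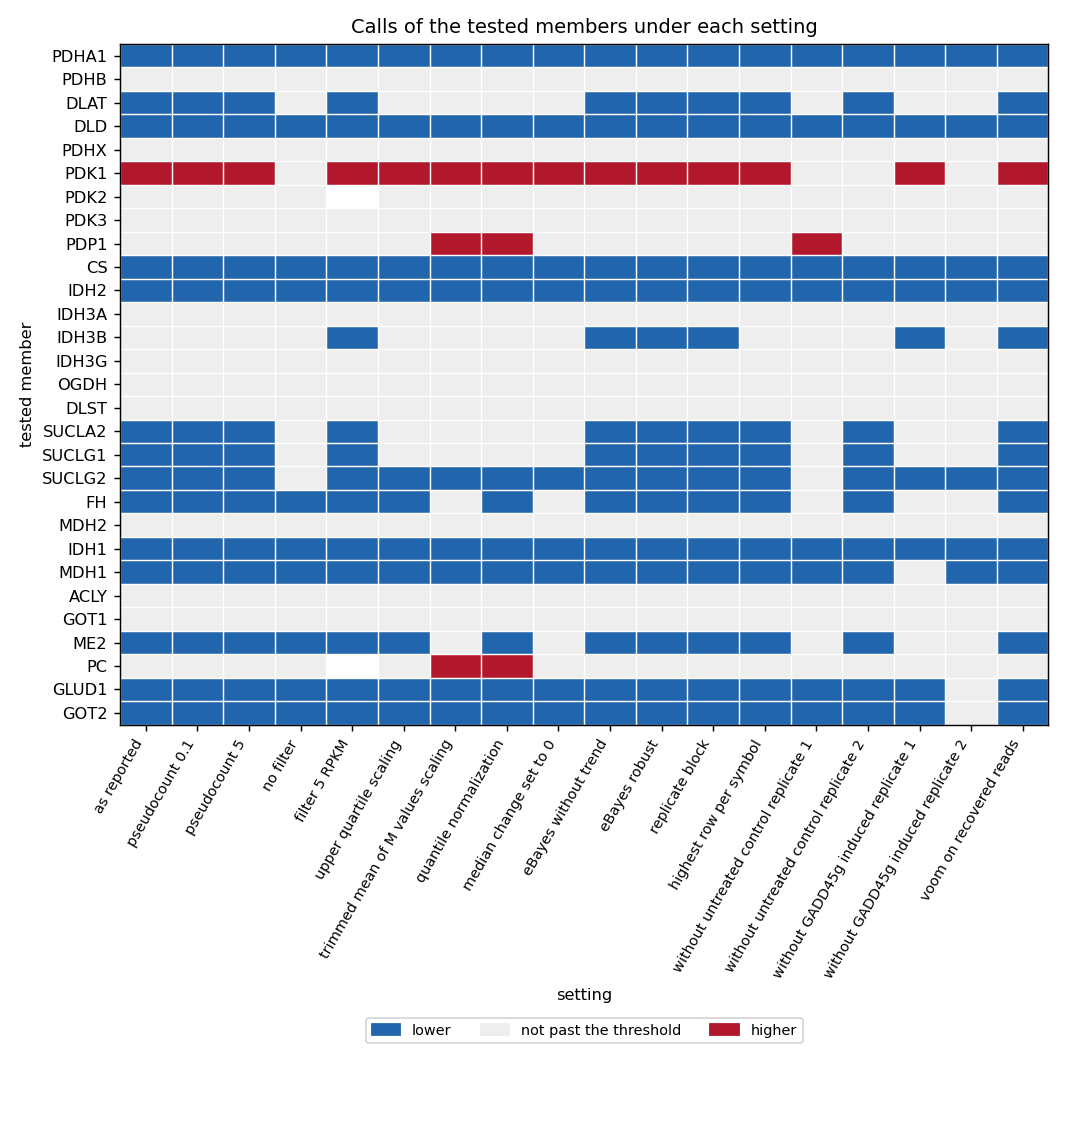
Call of each of the 29 tested genes (rows) as reported and under 17 alternative settings (columns): blue, lower; red, higher; light grey, not past the threshold; white, not in that fit. The rows of PDHA1, DLD, CS, IDH2 and IDH1 are blue in every column, and the row of PDK1 turns grey in 4 columns.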

How the data were processed

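The authors' deposited values are RPKM per Ensembl gene ID and library, per the file headers; TopHat, Cuffnorm, Cuffdiff and hg19 are listed in the submitters' processing notes, with no versions or roles. The table used for induced replicate 1 stops partway, at 27332 of 57820 IDs, so genes present in all 4 files were used. Low values were whole multiples of 1 read (100.0% within 0.01 reads), which gave depths of 18778791, 15683931, 18895470 and 15968886 reads; 0 reads allow up to 3 reads, and these limits and the 95% Poisson intervals cover counting error only.

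The 10771 genes that averaged 1 RPKM or more were tested on log2(RPKM + 1), which understates changes of low genes, with limma 3.58.1 in R 4.3.3 (eBayes with trend, two-sided, Benjamini-Hochberg over all tested genes, threshold 0.05). With 2 libraries a group 2 residual degrees of freedom remained, beside a prior of 8.72. Levels are given as untreated control 1 and 2, then induced replicate 1 and 2; numbers come from title suffixes. The p-values rest on the spread between these libraries, with the variance of each gene drawn toward that of genes of similar level. The code was tested on simulated data.

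Members and lists were chosen with earlier results of these data known. Named were all 31 genes, up to 12 connected genes with the smallest adjusted p among those called, and up to 6 regulators. PDP2, ACSS2, LDHA, NRF1, ESRRA, GABPA and the cell type markers are named beyond that rule, with their values known. Alternatives were pseudocounts of 0.1 and 5, no filter and a filter of 5 RPKM, 4 scalings (upper quartile, trimmed mean of M values, quantiles, median change at 0), eBayes without trend and robust, a replicate block, the highest row per symbol, each library left out and, added after seeing the data, voom on recovered reads. Overlaps of exons come from GENCODE release 29 and promoters from RefSeq (GRCh38.p14); the files' build is hg19, and no coordinates were converted.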

Additional observations from a re-analysis of the deposited data

How the results depend on the processing

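With 2 libraries a group, many calls rested on single libraries. Leaving out each library in turn gave 7 to 14 of the 29 genes lower and 0 to 1 higher, 9 to 15 of the connected genes lower and 3 to 4 higher, and 1766 to 2449 genes lower and 798 to 1133 higher over all tested genes. With no filter on low values, limma called 1639 genes lower and 823 higher over all genes, 8 connected genes lower, and 0 of the 29 genes higher, of which 1 had an unadjusted p under 0.05. Trimmed mean scaling gave 9 of the 29 genes lower and 3 higher and 10 connected genes lower, quantile normalization 3 higher and 9 connected genes lower, and the median change set to 0 gave 9 lower and 9 connected genes lower. A filter of 5 RPKM left 9 connected genes lower. The cause of these differences was not tested, except that the filters change which genes are tested. These scalings shift the median change by 0.23 (trimmed mean), 0.15 (upper quartile) and 0.21 (quantiles) on the log2 scale. The counts given for quantile normalization and for the filter of 5 RPKM have no share over all tested genes beside them.

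With a replicate block 15 of the 29 genes were lower and 1 higher, 20 connected genes were lower and 5 higher, and 3393 genes were lower and 1594 higher over all genes. The title suffixes are not stated to pair the libraries; deviations of libraries with the same number correlated at 0.35 over genes. Voom on recovered reads, chosen after seeing the data, gave 15 of the 29 genes lower and 1 higher. This count has no share over all tested genes beside it.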
